A study of Rattus norvegicus with 12 samples.

Results

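Interferon-stimulated genes are the genes that a cell switches on after interferon binds its receptor. A set of 36 such genes was followed in the left ventricle of rats 1 day after surgery. The members were the rows of the count table whose gene symbol stood on a list of type I and type II interferon response genes, and the rule itself used no measured value. All 36 were among the 34599 loci of the table, and all 36 passed the filter on low counts that left 15101 genes for testing. By role they comprised 16 effectors, 4 sensors of nucleic acid, 5 transcription factors, 4 modifiers and regulators, 4 guanylate-binding proteins and related GTPases, and 3 chemokines that bind the receptor CXCR3.

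RNA-seq was done on LV tissue of 12 male SD rats, 4 per group, whose age is not given for this experiment. Sham rats had the chest opened without ligation of the left anterior descending (LAD) coronary artery, and MI rats had that artery tied off. The iCarP+/Light+ rats had the same ligation, then 100 µL of suspended Chlorella, a green alga, in the infarct 10 min later. A photonic patch (iCarP) was fixed over the infarct with the adhesive CCS@gel and lit for 3 h at 55 mW. Effects of the alga, of the patch and its adhesive, and of the light cannot be told apart in these data. The iCarP+/Light+ rats are also called the treated rats. The labels gave no processing batch.

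Type I interferons act through IFNAR1 and IFNAR2 on a complex that includes STAT2 and IRF9 and binds the interferon-stimulated response element (ISRE). Genes that respond to type II interferon, IFN-γ, often carry the gamma-activated site (GAS). In the infarcted heart, macrophages that take up the DNA of dying cells are a known source of type I interferon.

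Windows from RefSeq (build GRCr8), 250 bases before to 50 bases after the gene start, were matched for 27 of the 36 members. The ISRE core, GAAANNGAAA on either strand, lay in 17 of these 27 windows (63.0%) and in 3.92% of all 33469 windows of the table. The GAS, TTCNNNGAA on either strand, lay in 10 of the 27 (37.0%) and in 8.87% of all windows. Both motifs were found in 5 members, and 5 had neither (Cmpk2, Herc6, Mx1, Oasl and Stat2). A match is a description of letters, and an absent match says only that these letters are not in the window. Of the 16 matched members that fell in MI, 11 held an ISRE core, 1 a GAS alone and 4 neither, and of the 10 not called, 6 held an ISRE core, 3 a GAS alone and 1 neither. Stretches that end at the base before the start are shown, with the match in capitals, for 7 members that hold one, chosen with their levels known. Herc6, Cmpk2 and Mx1, which fell more than some of those shown, held neither motif, and the match of Cxcl9 was a GAS after the start. Ifit3 is shown because it was the only member called between the infarcted groups:
Ifit3 (chr1:241527246-241527325, + strand): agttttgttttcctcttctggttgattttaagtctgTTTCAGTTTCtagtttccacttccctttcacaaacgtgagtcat
Gbp2, Gbp4 and Gbp5 are neighbours and fell together after ligation, and each held an ISRE core, with its first base at -31, -10 and -56 from the start in that order:
Gbp2 (chr2:234005647-234005726, + strand): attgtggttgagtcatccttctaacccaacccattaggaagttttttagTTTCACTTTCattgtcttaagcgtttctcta
Gbp4 (chr2:233978406-233978485, + strand): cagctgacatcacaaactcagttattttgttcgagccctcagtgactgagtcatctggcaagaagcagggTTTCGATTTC
Gbp5 (chr2:233910919-233910998, + strand): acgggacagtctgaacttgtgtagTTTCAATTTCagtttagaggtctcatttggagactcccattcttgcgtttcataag
Ifih1 and Rsad2 also fell after ligation:
Ifih1 (chr3:67683969-67684048, - strand): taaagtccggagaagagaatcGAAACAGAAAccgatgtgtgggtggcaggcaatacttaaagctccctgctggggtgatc
Rsad2 (chr6:48788121-48788287, - strand): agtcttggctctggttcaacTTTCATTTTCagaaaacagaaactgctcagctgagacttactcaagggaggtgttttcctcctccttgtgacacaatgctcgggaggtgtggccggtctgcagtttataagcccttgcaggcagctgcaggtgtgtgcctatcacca
Irf8 is the member that rose, and its window held a pair of GAS matches and no ISRE core:
Irf8 (chr19:65699084-65699283, + strand): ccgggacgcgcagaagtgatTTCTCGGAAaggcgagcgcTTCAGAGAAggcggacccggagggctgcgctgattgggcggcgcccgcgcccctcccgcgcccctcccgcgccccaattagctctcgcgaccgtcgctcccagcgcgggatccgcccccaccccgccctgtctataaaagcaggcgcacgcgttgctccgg
The members not matched in the RefSeq table were Ddx58, Dhx58, Ifit1, Ifit2, Isg15, Mx2, Rtp4, Usp18 and Zbp1.

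The 12 libraries held 14064414 to 17136958 counts. The share of mitochondrial genes was 22.8% to 28.9% in Sham libraries. It was lower after ligation, with 8.52% to 11.5% for MI and 7.14% to 14.2% for iCarP+/Light+. Levels are CPM, counts divided by the TMM-scaled library size and set to a common total, a scaling that sets the average gene level with most genes taken as unchanged. A gene is said to rise or fall where edgeR's quasi-likelihood test gave an adjusted p under 0.05 over the 15101 genes. The labelled tissue was checked by 11 cardiomyocyte markers, whose summed level was 47874 to 52595 CPM in Sham rats. After ligation it was 3487 to 7351 CPM (MI) and 2957 to 8321 CPM (iCarP+/Light+). In bulk tissue, fewer cells of a type and less RNA per cell cannot be told apart.

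The rats of each group differed from each other in the members far more than in other genes, and Sham rat 2 stood apart. Within the Sham group it had the lowest level in 34 of the 36 members (94.4%), whereas it was lowest in 24% of all genes tested. Its median distance from the Sham median was -2.23 on the log2 scale over the members and 0.00 over all genes. The highest Sham level was that of rat 5 in 34 members. The other Sham rats, 1 and 3, lay near the group median, at 0.01 and -0.02.

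A graded order was also present within the ligated groups. MI rat 1 had the lowest MI level in 30 members and MI rat 4 the highest in 31. Among iCarP+/Light+ rats, rat 1 was lowest in 23 and rat 2 highest in 29. The SD of log2 CPM between rats had a median over the members of 1.23 for Sham, against 0.20 over all genes tested. For MI these medians were 0.76 and 0.28, and for iCarP+/Light+ 0.75 and 0.27. The test took 1 error per gene from the rats of all 3 groups together, not the SD of a single group. The wide Sham spread therefore also entered the comparison of iCarP+/Light+ with MI.

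**Figure D1:**
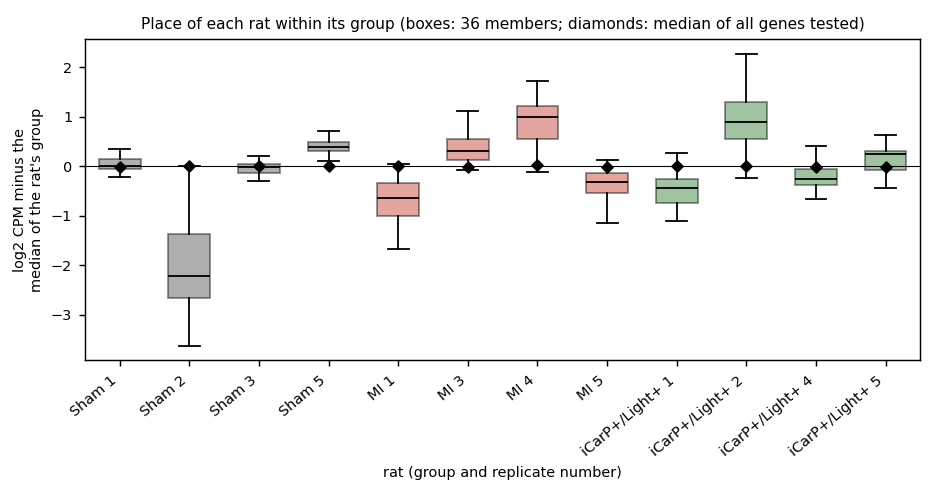
Log2 CPM of each rat minus the median of its own group, for the 36 members (boxes from the lower to the upper quartile with the median as a line, whiskers to the farthest gene not set apart as an outlier) and as the median of all genes tested (diamonds). Sham rat 2 sits at a median of -2.23 while the diamonds of all 12 rats lie near 0.

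Sham rat 2 was close to the other Sham rats in markers of cell types, and its mitochondrial share, 22.8%, was the lowest of the Sham group. Its summed level was 52595 CPM for cardiomyocyte markers, the highest of the Sham rats, and 259 CPM for 6 leukocyte markers, the lowest in a Sham range of 259 to 379 CPM. Its 8 macrophage or monocyte markers summed to 406 CPM, in a Sham range of 352 to 569 CPM. In 61 other interferon-inducible genes that are not members, the same rat was lowest of the Sham rats in 55. For 23 members its level lay within the range of the MI rats, compared with 5, 7 and 3 members for Sham rats 1, 3 and 5. Over the 61 other genes it lay within that range in 17, as Sham rats 1 and 3 did (rat 5 in 13), and over all genes tested in 24%.

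**Figure D2:**
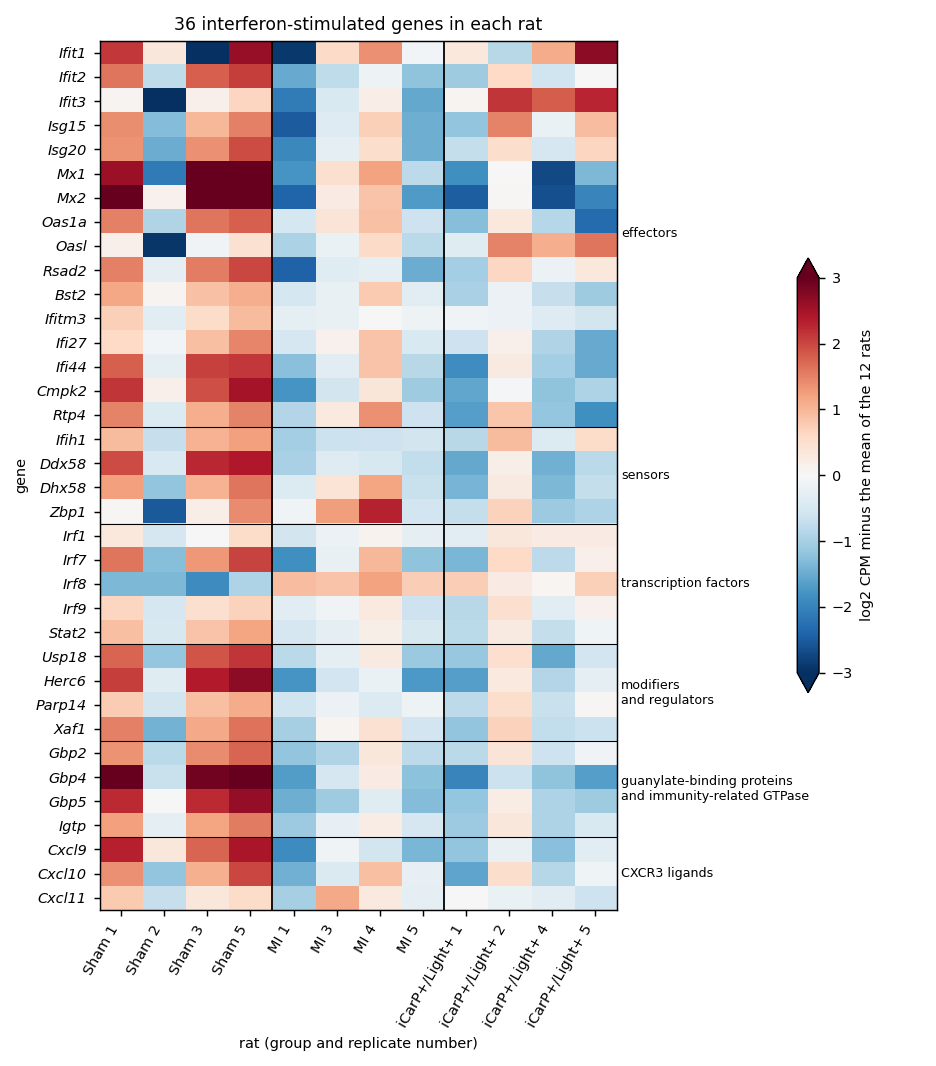
Log2 CPM of the 36 members (rows, ordered by role) in the 12 rats (columns), minus each gene's mean over all rats, with red above and blue below the mean and colours ending at 3. Sham rats 1, 3 and 5 are red in most rows, Sham rat 2 is blue in most, and Irf8 is the row with low Sham and high MI levels.

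Per kilobase of gene length, the members spanned a wide range of levels. In Sham rats the highest mean levels were those of Ifi27 (798 CPM per kb), a small membrane protein, Ifitm3 (438 CPM per kb), which hinders viral entry, and Irf7 (339 CPM per kb), the factor that amplifies type I interferon. Bst2, or tetherin, followed at 237 CPM per kb, below Irf7 in 3 of the 4 Sham rats. The lowest were Zbp1 (2.14 CPM per kb), a sensor of Z-form nucleic acid, and Cxcl11 (9.56 CPM per kb). Taken per kilobase, the ranges of Ifi27, Ifitm3 and Irf7 over the 4 Sham rats overlapped, while within each of the 4 Sham rats the order was the same. In MI rats the order began with Ifi27 (488 CPM per kb), Ifitm3 (268) and Bst2 (132), although Irf7 exceeded Bst2 in 2 of the 4 MI rats. In iCarP+/Light+ rats the highest mean was that of Ifit3, 364 CPM per kb, followed by Ifi27 at 297 and Ifitm3 at 245. Ifit3 exceeded Ifi27 in 2 of the 4 treated rats, and in rats 1 and 2 Ifi27 was the higher, so the order of these means did not hold in every rat.

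The first comparison, MI against Sham, asks what ligation did to these genes at 1 day. The members were lower in MI rats: 20 of 36 fell, 1 rose (Irf8) and 15 were not called. Over all genes tested 63.8% were called, 33.6% lower and 30.2% higher, so a call in itself was common, and the members' calls were nearly all in the downward direction. The median log2 fold change of the members was -1.33, against -0.06 over all genes, and 34 of 36 were negative. In spite of this, the rats of both groups were fully separated in only 4 members: Rsad2, Gbp5 and Cxcl9 lay below every Sham rat and Irf8 above. Over all genes 31.4% lay fully below and 27.6% fully above. Without Sham rat 2 the number that fell was 27 and the median -1.64, with Isg15, Oas1a, Irf1, Irf7, Irf9, Xaf1 and Cxcl10 added. Leaving out 1 rat at a time, 16 of the 21 calls were kept in all 8 cases. Mx1, Isg20 and Bst2 lost theirs without MI rat 1, 3 or 5 or Sham rat 1, 3 or 5, and Stat2 and Parp14 without MI rat 1 or Sham rat 5, with an adjusted p of 0.101 at most. With scaling by total counts alone, which shifts the median of all genes to 0.52 and leaves 18.4% of all genes called lower, 12 members fell, and Isg20, Mx1, Bst2, Ifitm3, Ifi44, Stat2, Parp14 and Igtp lost their calls. Mx1 and Isg20 were not called by limma-voom either. With the replicate number as a block, Mx1, Isg20, Stat2, Usp18 and Parp14 lost their calls, at an adjusted p of 0.0526 to 0.0876.

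The guanylate-binding proteins and Igtp, large and small GTPases that coat membranes around intracellular microbes, all fell in MI. These are 4 genes, and 33.6% of all genes fell. Gbp5, Gbp4 and Gbp2 lie side by side on chr2:248178389-248293784 (build rn6). Gbp5 was at 119, 25.1, 119 and 157 CPM in Sham rats 1, 2, 3 and 5, and at 8.95, 11.9, 19.3 and 10.001 CPM in MI rats 1, 3, 4 and 5. Every MI rat was below Sham rat 2, and the difference was 8.38-fold (log2 fold change -3.07 ± 0.50 SE, adjusted p = 0.000139). Gbp4 had the largest fall of all members, 39.0 ± 24.9 CPM in Sham and 3.75 ± 2.30 CPM in MI (SD, n = 4), a log2 fold change of -3.38 ± 0.68 (SE). Its Sham rat 2, at 3.55 CPM, lay inside the MI range of 1.72 to 6.88 CPM. Gbp2 fell 3.26-fold (log2 -1.71 ± 0.48) and Igtp 2.64-fold (log2 -1.40 ± 0.40).

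Of the 16 effectors, whose products block viral replication or entry, 9 fell in MI and 7 were not called. The share that fell was 56.2%, against 33.6% of all genes. Rsad2, which encodes viperin, an enzyme that makes a chain-terminating nucleotide, was at 224, 64.9, 226 and 313 CPM in Sham rats 1, 2, 3 and 5. The MI rats 1, 3, 4 and 5 were at 14.5, 60.1, 64.8 and 27.6 CPM. The highest MI rat was thus just under Sham rat 2, and the log2 fold change was -2.31 ± 0.53 (SE, adjusted p = 0.00203). Its neighbour Cmpk2, a mitochondrial nucleotide kinase on the same stretch chr6:45655954-45694822, fell 5.54-fold (log2 -2.47 ± 0.53), with Sham rat 2 at 43.7 CPM below the highest MI rat at 50.2 CPM.

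Mx1 and Mx2, dynamin-like GTPases that trap viral components, differed widely between Sham rats. Mx1 was at 437, 16.7, 584 and 760 CPM in Sham rats 1, 2, 3 and 5, and at 21.7, 103, 169 and 42.4 CPM in MI rats 1, 3, 4 and 5. Sham rat 2 was below all 4 MI rats, and the other Sham rats were above them. The fall of Mx1 was 5.35-fold (log2 -2.42 ± 0.90, adjusted p = 0.032). Mx2, on chr11:38035450-38059950, fell 9.06-fold (log2 -3.18 ± 0.88), from 517 ± 319 CPM in Sham to 57.1 ± 50.2 CPM in MI (SD, n = 4).

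The IFIT genes, whose proteins bind foreign RNA, lie together on chr1:252894663-252946170 and behaved unequally. Ifit2 fell 4.97-fold (log2 -2.31 ± 0.53), from 374, 72.0, 425 and 517 CPM in Sham rats 1, 2, 3 and 5 to between 43.0 and 111 CPM in MI. Ifit3 was not called (log2 -0.65 ± 0.69, adjusted p = 0.429). Ifit1 was not called either (log2 -1.20 ± 1.15, adjusted p = 0.379), and its Sham rats 1, 2, 3 and 5 were at 193, 55.7, 0.152 and 268 CPM. The value of Sham rat 3 rests on 2 counts in a library where Ifit2 and Ifit3 were high. Ifit1 has close copies in the rat, and how the authors' counting divided reads among them is not given, so the level of Ifit1 is uncertain.

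The other effectors that fell were Isg20, an RNA exonuclease (3.31-fold), Ifi44 (3.55-fold), Bst2 (1.79-fold) and Ifitm3 (1.63-fold). Ifitm3 showed little spread after ligation, with 172, 181, 207 and 190 CPM in MI rats 1, 3, 4 and 5 against 344, 167, 310 and 406 CPM in Sham rats 1, 2, 3 and 5. Effectors that were not called had log2 fold changes from -1.42 for Isg15, the ubiquitin-like modifier, to -0.04 for Oasl, a catalytically inactive relative of the oligoadenylate synthetases. Oas1a (-1.14), Rtp4 (-0.75) and Ifi27 (-0.71) lay between.

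**Figure D3:**
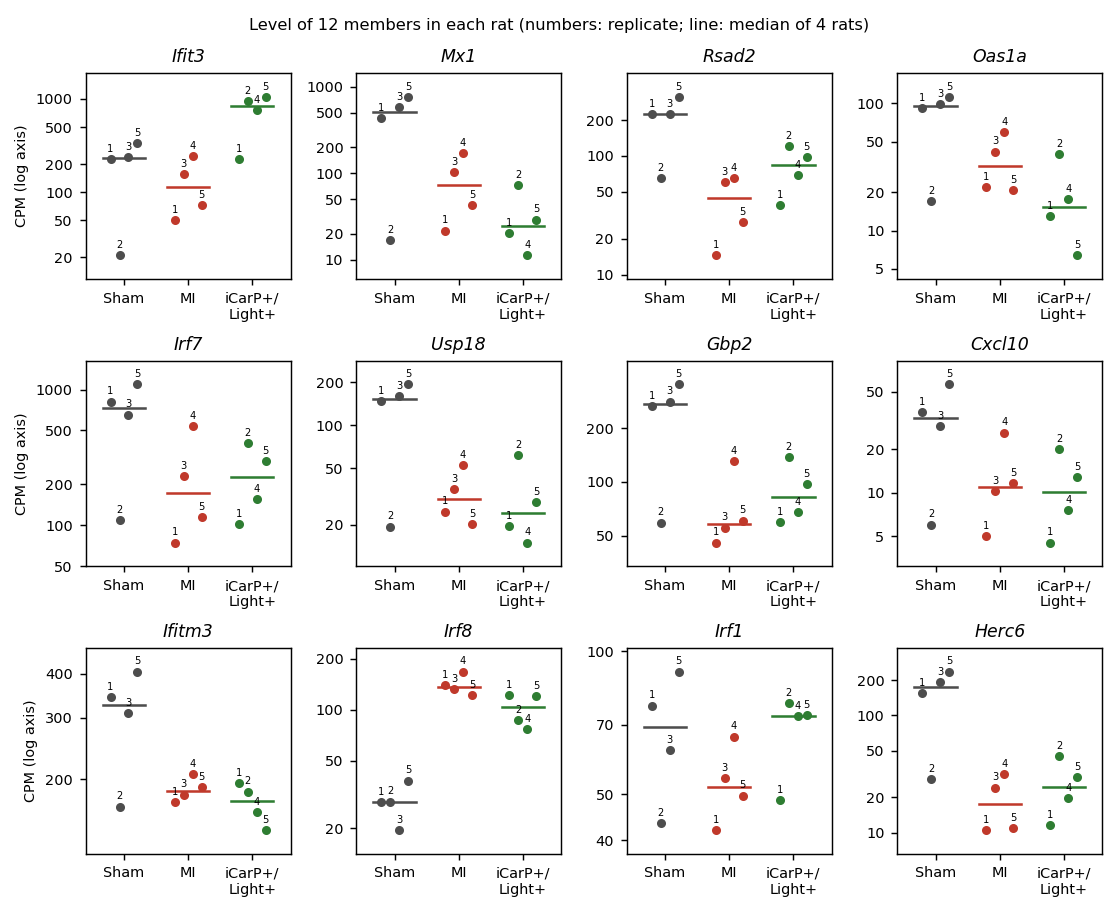
CPM (log axis) of 12 members in each rat, with the replicate number above each point and the group median as a line. Sham rat 2 is the lowest Sham rat in all panels but Irf8, where all 4 MI rats (123 to 168 CPM) are above all Sham rats (19.6 to 38.3 CPM).

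Of the sensors, both RNA helicases that signal through MAVS fell. Ifih1 (MDA5) was at 102, 32.7, 108 and 124 CPM in Sham rats 1, 2, 3 and 5 and at 25.9, 33.6, 34.0 and 36.0 CPM in MI rats 1, 3, 4 and 5 (log2 fold change -1.50 ± 0.41 SE). Ddx58 (RIG-I) fell 5.74-fold (log2 -2.52 ± 0.52), from 71.1 ± 39.8 CPM to 12.4 ± 2.20 CPM (SD, n = 4). In both genes the MI rats lay close together, and Sham rat 2 was within their range. Dhx58 (LGP2), which has no signalling domain of its own, was not called (log2 -0.67 ± 0.55). Zbp1 was the other member with a positive difference (log2 0.84 ± 0.74, adjusted p = 0.339), at 0.683 to 12.2 CPM in Sham and 2.98 to 22.6 CPM in MI.

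The transcription factors divided. Irf8, on chr19:54314865-54336640, which directs the development of monocytes and dendritic cells, was at 28.5, 28.7, 19.6 and 38.3 CPM in Sham rats 1, 2, 3 and 5. It was at 140, 133, 168 and 123 CPM in MI rats 1, 3, 4 and 5, all above the Sham rats. The rise was 4.89-fold (log2 2.29 ± 0.21, adjusted p = 1.19e-06), and Sham rat 2 did not stand apart in this gene. Markers of macrophages or monocytes and of plasmacytoid dendritic cells were also higher, while none of the 3 B lymphocyte markers tested was called. The 8 macrophage or monocyte markers summed to 352 to 569 CPM in Sham and 3701 to 6665 CPM in MI, with 7 of 8 rising. The 3 plasmacytoid dendritic cell markers measured summed to 0.723 to 1.06 CPM in Sham and 13.9 to 18.9 CPM in MI, all 3 rising, although 2 of them, Siglech and Ccr9, were at 0 in some rats. Their part in the level of Irf8 was not tested.

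Stat2 fell 1.96-fold (log2 -0.97 ± 0.32). Its partner Irf9 was not called (log2 -0.55 ± 0.30, adjusted p = 0.132). Irf1, the first factor induced by IFN-γ, was not called (log2 -0.36 ± 0.22), with 43.5 to 90.7 CPM in Sham and 42.1 to 66.2 CPM in MI. Irf7 was at 816, 110, 653 and 1094 CPM in Sham rats 1, 2, 3 and 5 and at 74.5, 230, 535 and 115 CPM in MI rats 1, 3, 4 and 5. Its mean was 2.80-fold lower in MI, within the spread between rats (log2 -1.49 ± 0.69, adjusted p = 0.0764). A stretch of 65 bases of Irf7 overlaps Phrf1 on the other strand, and the strand setting of the counting is not given.

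All 4 modifiers and regulators had negative values, and 3 fell, or 75% against 33.6% of all genes. Of those that fell, Usp18 and Parp14 were not called with the replicate number as a block. Herc6, the ligase that joins ISG15 to its targets in rodents, fell 7.88-fold (log2 -2.98 ± 0.60), from 153 ± 89.3 CPM to 19.4 ± 10.4 CPM (SD, n = 4). Usp18, which removes ISG15 and damps the type I receptor, fell 3.91-fold (log2 -1.97 ± 0.60), with 19.5 CPM in Sham rat 2 and 147 to 194 CPM in the other Sham rats. Parp14, an ADP-ribosyltransferase, fell 2.01-fold (log2 -1.01 ± 0.34). Xaf1, a pro-apoptotic binder of XIAP, was not called (log2 -1.25 ± 0.56, adjusted p = 0.0671).

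The CXCR3 ligands, which draw activated T and NK cells, lie together on chr14:17195014-17234712. Cxcl9 was at 102, 25.6, 68.7 and 112 CPM in Sham rats 1, 2, 3 and 5 and at 5.41, 19.0, 13.9 and 7.71 CPM in MI rats 1, 3, 4 and 5. All MI rats were below all Sham rats, a 6.72-fold fall (log2 -2.75 ± 0.48, adjusted p = 0.000238). Cxcl10 (log2 -1.27 ± 0.62, adjusted p = 0.0903) and Cxcl11 (log2 -0.10 ± 0.39, adjusted p = 0.839) were not called. Both lie wholly inside Art3, which is on the other strand, had 519 to 3428 counts and fell itself (log2 -1.67). Without a strand setting, reads from either gene cannot be assigned with certainty. The receptor gene Cxcr3 rose, from 2.11 ± 0.61 CPM in Sham to 4.75 ± 1.16 CPM in MI (SD, n = 4), and of 11 T or NK cell markers 5 rose, 1 fell (Cd4) and 5 were not called. The higher sum of these markers in MI was that of Cd8a, at 1.52 to 4.57 CPM in Sham and 64.7 to 205 CPM in MI, and the other 10 summed to 55.2 to 81.4 CPM and 52.4 to 74.1 CPM.

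Markers of blood-borne cells did not move as one in MI. The 6 leukocyte markers all rose in MI, from 259 to 379 CPM in Sham to 2182 to 3012 CPM. Red blood cell markers fell in 4 of 5, with a sum of 7929 to 10662 CPM in Sham and 2521 to 7024 CPM in MI, and none of the 3 B lymphocyte markers tested was called. The cardiomyocyte, endothelial and fibroblast markers fell in 10 of 11, 6 of 6 and 6 of 7. Endothelial markers summed to 1613 to 1793 CPM in Sham and 688 to 1087 CPM in MI, and fibroblast markers to 8753 to 10898 CPM and 2475 to 2865 CPM. Their part in the lower level of the members was not tested. Sham rat 2, with low members, had 1760 CPM of endothelial and 10369 CPM of fibroblast markers, both inside the Sham range.

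**Figure D4:**
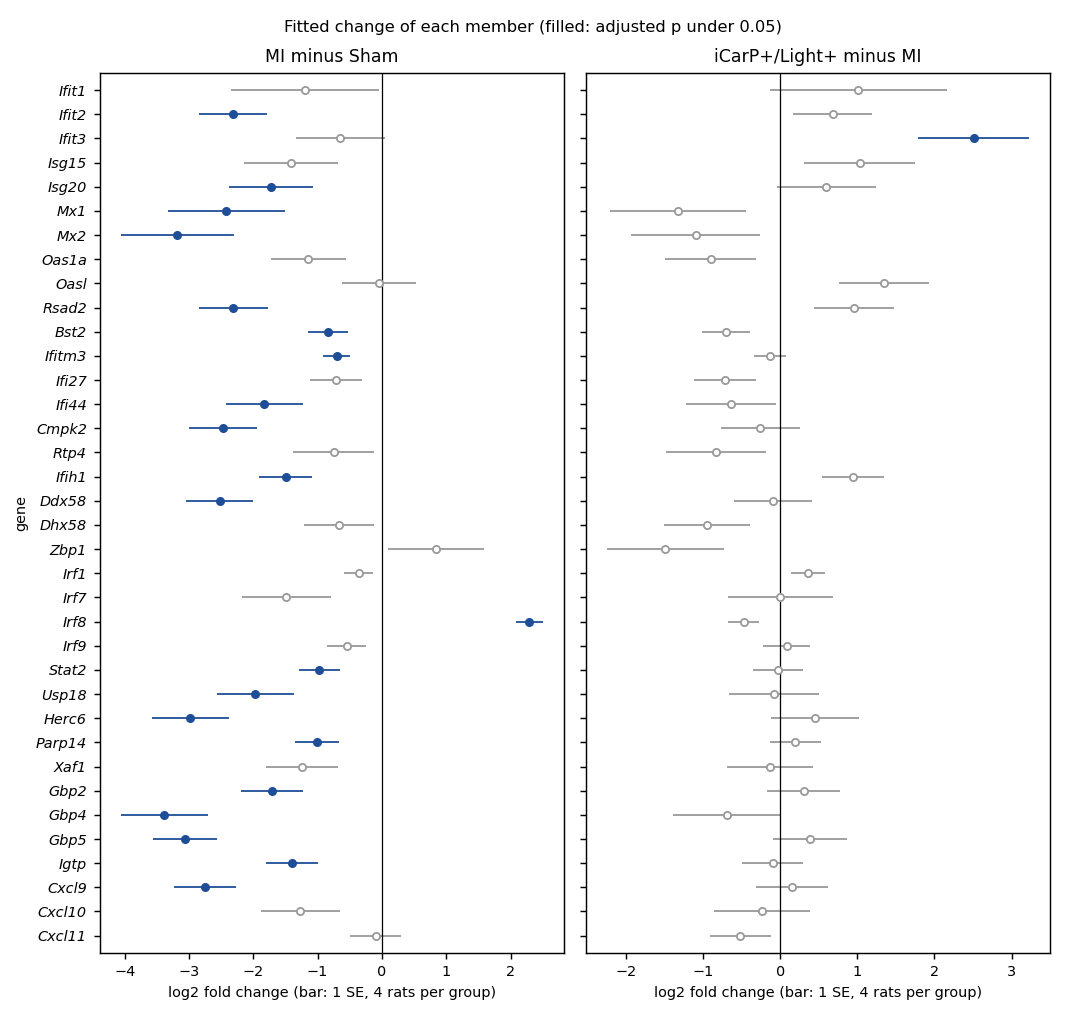
Log2 fold change of each member (points, bars of 1 SE, 4 rats per group) for MI minus Sham and for iCarP+/Light+ minus MI, filled blue where the adjusted p was under 0.05. The first panel holds 20 filled points left of 0 and Irf8 right of 0, and the second holds Ifit3 alone.

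The second comparison, iCarP+/Light+ against MI, asks what the lit patch and alga changed after ligation. Ifit3 rose, the other 35 members were not called, and none fell. Over all genes 13.6% were called, 11.6% higher and 2.01% lower. The members' median log2 fold change was -0.09 against 0.01 over all genes, and 16 of 36 were positive. By unadjusted p under 0.05, 3 were higher (Ifit3, Oasl and Ifih1) and 2 lower (Bst2 and Irf8). DESeq2 and limma-voom also called none lower, and Ifit3 itself was not called by limma-voom (adjusted p = 0.0542) or with the replicate number as a block (adjusted p = 0.0798). With scaling by total counts alone, which shifts the median of all genes to -0.25, Bst2 and Irf8 were called lower, where 2722 of the 15101 genes were, a share above that of the members. The groups were fully separated only in Irf8, which was lower in every iCarP+/Light+ rat, whereas 4.37% of all genes lay fully below and 12.1% fully above.

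Ifit3, on chr1:252906234-252911382, was at 227, 943, 759 and 1051 CPM in iCarP+/Light+ rats 1, 2, 4 and 5. The MI rats 1, 3, 4 and 5 were at 49.9, 156, 246 and 73.1 CPM. Rats 2, 4 and 5 of the treated group were above every MI and Sham rat, and rat 1 was within the MI range. The rise was 5.68-fold (log2 2.51 ± 0.72, adjusted p = 0.0352). It was near the threshold: with 1 rat left out at a time the log2 fold change stayed between 2.21 and 3.001, and the adjusted p ranged from 0.0166 to 0.0995. The call was lost without MI rat 1, 3 or 5 or iCarP+/Light+ rat 2, 4 or 5.

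Oasl had the next largest positive difference and did not pass (log2 1.35 ± 0.58, adjusted p = 0.164). It was at 54.0, 194, 149 and 211 CPM in iCarP+/Light+ rats 1, 2, 4 and 5 and at 35.9, 60.7, 103 and 39.5 CPM in MI rats 1, 3, 4 and 5. Treated rats 2, 4 and 5 were again above all MI rats. Ifih1 was at 29.7, 102, 39.8 and 76.9 CPM in the treated rats, against 25.9 to 36.0 CPM in MI (log2 0.94 ± 0.41, adjusted p = 0.162). Isg15 (log2 1.03 ± 0.72), Ifit1 (1.01 ± 1.14), Rsad2 (0.96 ± 0.52) and Ifit2 (0.68 ± 0.51) had positive values within the spread between rats.

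Of the 20 members with negative values, the lowest were Zbp1 (log2 -1.49 ± 0.76), Mx1 (-1.33 ± 0.88), Mx2 (-1.10 ± 0.83), Dhx58 (-0.95 ± 0.56), Oas1a (-0.90 ± 0.59) and Rtp4 (-0.83 ± 0.65). None of these passed, nor did Ifi27 (-0.72 ± 0.40) or Ifi44 (-0.64 ± 0.59). Bst2 was at 55.6, 96.6, 67.3 and 52.0 CPM in the treated rats and at 75.8, 94.0, 187 and 86.1 CPM in MI rats 1, 3, 4 and 5 (log2 -0.70 ± 0.31, adjusted p = 0.171). Irf8 was at 123, 86.7, 76.7 and 121 CPM, just under the lowest MI rat at 123 CPM (log2 -0.47 ± 0.20, adjusted p = 0.156). For Irf7, the means were the same to 3 digits, 239 ± 136 CPM treated and 239 ± 208 CPM in MI (SD, n = 4), yet its SE of 0.68 on the log2 scale left room for differences in either direction. The guanylate-binding proteins, Igtp, the modifiers and regulators and the CXCR3 ligands lay between -0.69 (Gbp4) and 0.45 (Herc6).

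Ifit3 and Mx1 thus separated from each other. The ratio of their CPM, not corrected for length, was 0.408 to 1.26 in Sham and 1.45 to 2.30 in MI. In the treated rats it was 11.1 to 67.5. The pair was chosen after the values were seen, so the ratio is a description and was not tested. In rat 4 of the treated group Mx1 was at 11.2 CPM, the lowest of the 12 rats, while Ifit3 was at 759 CPM.

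**Figure D5:**
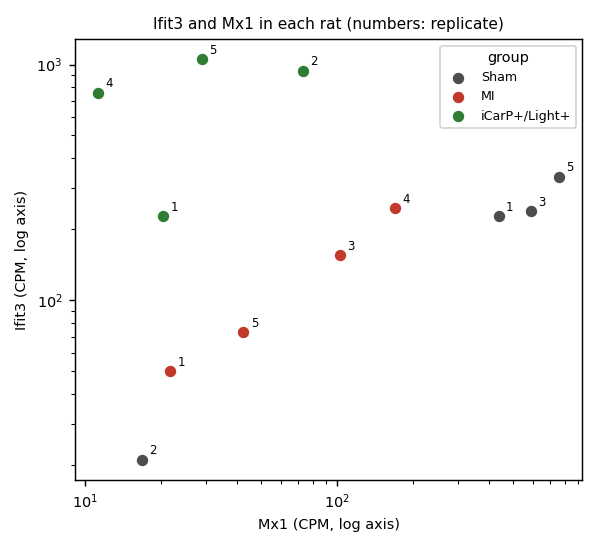
Ifit3 against Mx1 in each rat (CPM, both axes log), coloured by group with the replicate number beside each point. The ratio of Ifit3 to Mx1 is 0.408 to 1.26 in Sham rats and higher in MI rats, at 1.45 to 2.30. In the 4 iCarP+/Light+ rats it is 11.1 to 67.5, with Ifit3 at 227 to 1051 CPM and Mx1 at 11.2 to 72.9 CPM.

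Markers of neutrophils moved with the treated group. The 8 neutrophil markers, 8.17 to 12.5 CPM in sum for Sham, reached 408 to 720 CPM with ligation alone. With patch, alga and light the sum was 3117 to 9059 CPM, and all 7 that were tested rose against MI. Rat 1 of the treated group, with the lowest Ifit3, had the lowest neutrophil sum of that group, 3117 CPM, and rat 5, with the highest Ifit3, had the highest, 9059 CPM. Rats 4 and 2 of the treated group lay between in the same order, with Ifit3 at 759 and 943 CPM and sums of 5814 and 6922 CPM. In MI rats the order was the same only in part. MI rat 4 had the highest Ifit3 (246 CPM) and the highest neutrophil sum, 720 CPM. MI rat 3, with the second highest Ifit3 (156 CPM), had the lowest neutrophil sum, 408 CPM. Sham rats 1, 3 and 5 had Ifit3 at 227 to 334 CPM with neutrophil sums of 8.17 to 12.5 CPM. Leukocyte markers summed to 3408 to 6833 CPM, with 4 of 6 rising, and macrophage or monocyte markers to 2903 to 4779 CPM, with 1 of 8 rising and 1 falling. Red blood cell markers rose in 4 of 5, to 6250 to 17606 CPM from 2521 to 7024 CPM. The part of these cells in the level of Ifit3 was not tested.

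The third comparison, iCarP+/Light+ against Sham, shares its groups with the others, so it is no separate evidence. In it 24 members fell, Ifit3 and Irf8 rose, and 10 were not called, where 66.5% of all genes were called, 33% lower and 33.5% higher. The median log2 fold change was -1.46 against 0.02 over all genes. Mx2 was 19.4-fold lower (log2 -4.28 ± 0.93) and Gbp4 16.8-fold lower (-4.07 ± 0.71). Mx1 was 13.4-fold lower (-3.75 ± 0.96). Cxcl9, Bst2, Cmpk2 and Mx2 lay below every Sham rat, and Irf8 above, where 31.6% and 31.9% of all genes did. Without Sham rat 2 the number that fell was 28 and the median -1.73. Of those not lower in MI, Oas1a (log2 -2.05 ± 0.60), Dhx58 (-1.62 ± 0.56), Rtp4 (-1.59 ± 0.65), Cxcl10 (-1.50 ± 0.63), Ifi27 (-1.43 ± 0.41) and Xaf1 (-1.38 ± 0.56) fell here. Conversely, Isg20 (log2 -1.13, adjusted p = 0.134) and Ifih1 (-0.56, adjusted p = 0.235), which fell in MI, were not called here. With 1 rat left out, 17 of the 26 calls were kept in all 8 cases. Rsad2, Rtp4, Parp14, Xaf1 and Cxcl10 kept theirs in only 2 of the 8, Dhx58 and Gbp2 in 5, and Stat2 in 7, and all of these lost it without Sham rat 5, with an adjusted p of 0.162 at most over the 8 cases. Ifit3 lost its call without Sham rat 1 or 3 or treated rat 2, 4 or 5, with an adjusted p of 0.0703 at most. With the replicate number as a block 15 members fell, and Ifit2, Ifit3, Rsad2, Dhx58, Stat2, Usp18, Parp14, Xaf1, Gbp2 and Cxcl10 lost their calls, at an adjusted p of 0.0661 to 0.164. With scaling by total counts alone 18 fell, where 24.1% of all genes did. The falls seen here and not in MI do not show that treated and MI rats differed in them, since none was called between these groups.

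The interferons themselves were hardly seen. Of 11 interferon genes in the table none passed the filter. Ifnb1, the type I interferon of most tissue cells, had 2 counts in Sham rat 1 and 0 in all other rats. Ifng had 0 to 4 counts per rat, with the 4 counts in Sham rat 2, and the 5 Ifna genes listed were at 0 throughout. A count of 0 allows up to 3 counts per library and covers counting error only, so low or local expression was not detectable at this depth.

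Genes of the receptors and of signal transduction made up a list of 17 tested. In MI 10 rose and 2 fell, or 58.8% and 11.8% against 30.2% and 33.6% of all genes. In iCarP+/Light+ against MI 12 rose, 70.6% against 11.6% of all genes, and 5 were not called. Neutrophil markers (7 of 7 tested) and leukocyte markers (4 of 6) rose in the same comparison, and their part in these genes was not tested. Socs3, a feedback inhibitor of JAK kinases that many cytokines induce, rose in MI (log2 3.03 ± 0.25) and rose further in iCarP+/Light+ rats (3.16 ± 0.24 against MI). Ptpn6 and Jak2 rose in MI (2.76 ± 0.18 and 1.51 ± 0.13), and Ptpn11 fell (-0.70 ± 0.13). Ifnar2, a subunit of the type I receptor, rose in the treated rats (1.66 ± 0.19 against MI), where Socs1 rose as well (1.38 ± 0.32).

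Among 18 tested genes of the sensors, adaptors and kinases that lead to interferon, 10 rose and 2 fell in MI, or 55.6% and 11.1% against 30.2% and 33.6% of all genes. Irf5, Ikbke and Tlr7 rose most (log2 2.92 ± 0.18, 2.76 ± 0.16 and 2.57 ± 0.30). Mavs, the adaptor of MDA5 and RIG-I, fell (-2.04 ± 0.15), as did the double-stranded RNA receptor Tlr3 (-1.26 ± 0.25). In treated against MI rats 4 rose (22.2% against 11.6% of all genes), among them Traf3 (0.92 ± 0.20), Myd88 (0.82 ± 0.18) and Ikbke (0.76 ± 0.14), and Irf5 fell (-0.60 ± 0.17). Against Sham, 12 rose and 3 fell in the treated rats (66.7% and 16.7% against 33.5% and 33% of all genes), Trex1 being the third that fell (-0.64 ± 0.22).

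A further 61 interferon-inducible genes that are not members gave 17 that fell and 6 that rose in MI, with a median log2 fold change of -0.48. The share that fell, 27.9%, was near the 33.6% of all genes, and the share that rose was 9.84% against 30.2%. Tnfsf10, the death ligand TRAIL, fell most (-4.25 ± 0.51), followed by Gbp6 (-2.95 ± 0.48) and Uba7, the activating enzyme for ISG15 (-2.67 ± 0.52). Ifit1bl, in the IFIT cluster between Ifit3 and Ifit1, rose instead. It was at 10.6, 4.44, 18.6 and 14.7 CPM in Sham rats 1, 2, 3 and 5, and at 74.9, 88.3, 182 and 75.9 CPM in MI rats 1, 3, 4 and 5 (log2 3.12 ± 0.47). Apobec1 (2.67 ± 0.22) and Oas3 (2.33 ± 0.59) rose too.

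In iCarP+/Light+ against MI, 7 of the 61 rose and 2 fell, with a median of -0.11. These shares, 11.5% and 3.28%, were near those of all genes, 11.6% and 2.01%. Ifit1bl rose further, to 254, 678, 638 and 780 CPM in treated rats 1, 2, 4 and 5 (log2 2.48 ± 0.44), all above every MI rat. Cd274, the ligand PD-L1, rose from 17.2 ± 2.85 CPM to 182 ± 87.2 CPM (SD, n = 4, log2 3.41 ± 0.33), and Plscr1, a phospholipid scramblase, rose from 35.8 ± 6.95 CPM to 202 ± 26.1 CPM (log2 2.49 ± 0.15). Apobec1 (-1.20 ± 0.20) and Psmb10 (-0.80 ± 0.23) fell. Against Sham the treated rats gave 23 lower and 9 higher of the 61, or 37.7% and 14.8% against 33% and 33.5% of all genes, so the lower share was near that of all genes.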

How the data were processed

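Total RNA of LV tissue from 12 rats (4 Sham, 4 MI, 4 iCarP+/Light+) was sequenced, and the authors deposited raw read counts per gene. The labels' processing notes name HISAT2, featureCounts and rn6, with no versions, and give neither the strand setting nor the treatment of reads that match several genes. The deposited gene length was used only for levels per kilobase. Groups were taken from the labels, which call the replicates samples of a group, so p-values measure the spread between these samples.

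Tests used edgeR 4.0.16 (R 4.3.3). After filterByExpr (minimum count 10), 15101 genes were scaled by TMM, the quasi-likelihood fit took all 12 rats with the group as its only term, and 3 contrasts were tested, with p-values adjusted by Benjamini-Hochberg over all genes. Errors of fold changes are SE from the quasi-likelihood F. Log2 CPM used a prior count of 2. The code was tested on simulated data. The alternatives were DESeq2 1.42.0, limma-voom 3.58.1, other scalings and filters, 2 groups only, a replicate block and leaving out each rat. Pairs of rats in a group differed by a chi-square per gene of 14.8 to 119, where counting noise gives about 1, so none was a copy. Symbols absent from the table were not analysed here. The members, the lists and the named genes were chosen with earlier results of these data known. All 36 members are named. From the other lists, Ifnb1, Ifng and Cxcr3 were named (1 further item is not reported here), with up to 3 called genes of the highest and of the lowest fold change per list and comparison. Promoter windows came from RefSeq tables, and no genome sequence was used. Intervals and floors cover counting error only.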

Additional observations from a re-analysis of the deposited data

Results flagged for a closer look

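In 16 of the 108 sets of 4 rats looked at (36 members in 3 groups), 1 rat lay far from the other 3 by Dixon's test at the 95% level, where chance alone flags about 1 in 20 sets, or 5.4. Of the 16, 14 were Sham rat 2, always low, and the members are not independent of each other. In this rat the GTPases were at 16.7 CPM for Mx1, 71.4 CPM for Mx2, 59.3 CPM for Gbp2, 3.55 CPM for Gbp4 and 25.1 CPM for Gbp5. The other Sham rats were at 437 CPM or more for Mx1, 566 CPM or more for Mx2 and 266 CPM or more for Gbp2. The RNA-binding and RNA-sensing members were at 72.0 CPM for Ifit2, 21.1 CPM for Ifit3, 17.1 CPM for Oas1a, 9.15 CPM for Oasl, 32.7 CPM for Ifih1 and 13.9 CPM for Ddx58. Ifi44 was at 38.0 CPM, Usp18 at 19.5 CPM and Xaf1 at 7.65 CPM. The other Sham rats were at 227 CPM or more for Ifit3 and 147 CPM or more for Usp18. Why this rat was low was not tested.

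The remaining sets were in iCarP+/Light+ rats. Irf1 was at 48.6 CPM in rat 1 and between 73.2 and 77.8 CPM in the other 3. Gbp5 was at 29.4 CPM in rat 2 and between 11.0 and 13.0 CPM in the other 3.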

How the results depend on the processing

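More members were lower than higher in MI against Sham under every alternative run, and their number moved with single rats. With 1 rat left out, members lower in MI than Sham numbered 15 to 27 (15 without MI rat 1 or Sham rat 5), those lower in iCarP+/Light+ than Sham 16 to 28, those higher than Sham 1 to 3, and those higher in iCarP+/Light+ than MI 0 to 1. Of 21 members called in MI against Sham, 16 kept the call without any 1 rat, and of 26 in iCarP+/Light+ against Sham, 17 did. The call of Ifit3 between iCarP+/Light+ and MI was also lost with limma-voom, which left 0, and with the replicate number as a block, which left 0. In MI against Sham, Isg20 and Mx1 lost their calls with limma-voom, and these and Bst2 with the rats of 2 groups only. In iCarP+/Light+ against Sham, limma-voom did not call Rsad2, Dhx58, Parp14, Xaf1 and Cxcl10, DESeq2 size factors did not call Parp14 and Cxcl10, and the fit on 2 groups did not call Parp14 and Xaf1. Same-numbered rats are different animals, and their deviations did not correlate (-0.15 to 0.07). Under the replicate block 15 members were lower in MI and 15 lower in iCarP+/Light+ than Sham, with 1 higher, and 1298 genes in place of 2051 were called in iCarP+/Light+ against MI.

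Scaling by total counts alone, with medians of all genes of 0.52, -0.25 and 0.33 in the 3 comparisons, gave 12 members lower in MI, 2 lower in iCarP+/Light+ than MI, and 3 higher and 18 lower in iCarP+/Light+ than Sham. The share of called genes that were higher became 73.5%, 30.7% and 64.7%, in place of 47.3%, 85.2% and 50.3%, and 3926 genes were called in iCarP+/Light+ against MI. In that comparison the share was 70.8% with DESeq2 and 72.4% with at least 10 counts in every rat. A log2 fold change of at least 1 left 5633 of 9633, 1046 of 2051 and 6054 of 10045 called genes, with 17 members lower in MI.

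Signs turned only in members without a call. In MI against Sham, Oasl took 0.030 with DESeq2 size factors and with DESeq2, 0.53 with total counts, 0.039 with 10 counts in every rat, 0.26 with limma-voom and 0.091 with 2 groups. Ifit1 took 0.37 with limma-voom and Cxcl11 0.039 with 2 groups, and with total counts Irf1 took 0.22, Irf9 0.030 and Cxcl11 0.48. In iCarP+/Light+ against MI, Irf7 took -0.054 with DESeq2 size factors and DESeq2, -0.050 with 2 groups, -0.25 with total counts, -0.0064 without a filter and -0.066 with 10 counts in every rat. There total counts gave Irf9 -0.18, Parp14 -0.087 and Cxcl9 -0.12, and the replicate block gave Stat2 0.013. In iCarP+/Light+ against Sham, Irf1 took 0.020 with DESeq2 size factors, DESeq2 and 10 counts in every rat, 0.018 with no filter, 0.31 with total counts, 0.029 with limma-voom and 0.0048 with 2 groups, and Ifit1 took 0.10 with total counts and 1.47 with limma-voom. The cause was not tested.

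With 1 rat left out, log2 fold changes in iCarP+/Light+ against MI ran from -0.66 to 0.24 for Cmpk2, -0.68 to 0.32 for Cxcl10, -0.087 to 0.50 for Cxcl9, -0.60 to 0.10 for Ddx58, -0.064 to 0.67 for Gbp5, -0.039 to 1.60 for Ifit1, -0.48 to 0.15 for Igtp, -0.37 to 0.77 for Irf7, -0.16 to 0.27 for Irf9, -0.10 to 0.36 for Parp14, -0.27 to 0.14 for Stat2, -0.65 to 0.22 for Usp18 and -0.70 to 0.14 for Xaf1. In MI against Sham they ran from -0.58 to 0.16 for Cxcl11 and -0.44 to 0.25 for Oasl, and in iCarP+/Light+ against Sham from -1.13 to 0.46 for Ifit1, -0.17 to 0.17 for Irf1 and -1.26 to 0.052 for Zbp1.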
